A study of Homo sapiens with 12 samples.

Results

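The gene GAPDH and ENSG00000269968, a gene annotated on the opposite strand at the same place, were followed across 12 RNA libraries. They were chosen by name, as 2 of the 61255 rows of the deposited count table, and both passed the filter on low counts that left 13108 rows for testing. All libraries came from Huh-7.5, an established human hepatocellular carcinoma line, engineered to express the peroxidase APEX2, an enzyme used for proximity labelling. The lines carried APEX-NES, APEX-NLS or APEX-G3BP1. An NES commonly stands for a signal that sends a protein out of the nucleus and an NLS for one that brings it in, while G3BP1 is a core protein of stress granules. Each line was mock-treated or exposed for 45 minutes to sodium arsenite at 0.5 mM, with 2 numbered replicates per line and treatment. All groups, mock included, therefore carry an APEX transgene, and no parental line was analysed here. The labels do not say whether a line is 1 clone, which promoter drives APEX, or whether the 2 replicates came from separate cultures. The p-values below may therefore measure only technical spread between these libraries.

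GAPDH is the glycolytic enzyme that oxidises and phosphorylates glyceraldehyde phosphate while making NADH, and it works with a reactive cysteine in its active site. Its transcript is abundant in most cells and is widely used as a reference in RNA and protein measurements. Arsenite is an oxidative stressor that halts translation initiation and makes stress granules form. ENSG00000269968 is annotated as an antisense gene, that is, a noncoding gene read from the strand opposite to a coding gene, and no function is assigned to it here.

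On GRCh38, in GENCODE 29, GAPDH spans chr12:6533927-6538374 on the plus strand, and ENSG00000269968 spans chr12:6537794-6538370 on the minus strand. The antisense gene has 2 exons. Exon 1, of 230 bases (chr12:6538141-6538370), lies opposite exon 9 of the transcript GAPDH-201, which holds the end of the coding sequence and the 3′ UTR. Exon 2, of 192 bases (chr12:6537794-6537985), lies wholly opposite coding sequence in exon 8. All 422 exon bases of ENSG00000269968 are opposite GAPDH exons, 219 of them opposite coding sequence and 203 opposite the 3′ UTR. They face 14.16% of the 2981 exon bases of GAPDH counted over all of its transcripts. The exons match the reverse complement of GAPDH-201 at 100% of bases, and their GC content is 57.82%.

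**Figure D1:**
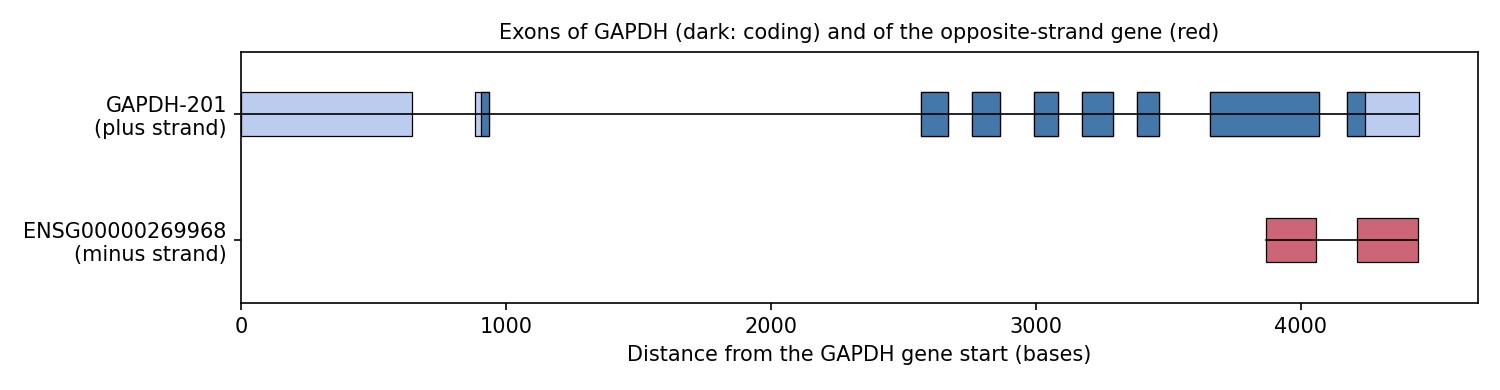
Exons of the transcript GAPDH-201 (top, dark blue coding and pale blue noncoding) and of ENSG00000269968 (bottom, red) against the distance in bases from the GAPDH gene start. Both red exons lie under the last 2 exons of GAPDH-201, and the red intron is wider than the GAPDH intron above it.

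The annotated introns of the genes differ, and sequences beside the antisense junction are shown. Each stretch lies in exon bases of both genes, on opposite strands, so apart from its strand it does not separate the annotated transcripts. The intron of ENSG00000269968 covers 155 bases (chr12:6537986-6538140) and has GT and AG at its ends on the minus strand. Intron 8 of GAPDH-201 covers 104 bases (chr12:6537997-6538100), so that 51 bases of the antisense intron are exon in GAPDH-201. Sequences are from GRCh38 with GENCODE 29 exons, each 5′ to 3′ on its own strand. In the first line capitals mark the first 10 bases after the antisense splice junction, in the second the GAPDH bases opposite them, and in the third the complement of the GAPDH stop codon.
ENSG00000269968 exon 2 (minus strand): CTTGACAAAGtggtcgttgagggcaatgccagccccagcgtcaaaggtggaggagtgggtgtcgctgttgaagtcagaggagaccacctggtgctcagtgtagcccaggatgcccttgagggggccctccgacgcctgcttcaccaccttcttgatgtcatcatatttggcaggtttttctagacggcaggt
GAPDH exon 8, chr12:6537956-6537985 (plus strand): ggcattgccctcaacgaccaCTTTGTCAAG
ENSG00000269968 exon 1 end, chr12:6538141-6538170 (minus strand): TTActccttggaggccatgtgggccatgag
The library kit keeps the strand of the RNA. The strand setting used for counting is not given in the sources used here, and reads across the junction cannot be seen in a table of counts per gene. Had the strand been taken the other way in counting, reads of GAPDH RNA from the shared bases would be in the ENSG00000269968 row. Which of these overlapping genes gave the counts in either row can therefore not be told apart. Each value below is the count of a row, not a measured level of that gene's RNA.

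Library totals ranged from 1090308 to 1461067 counts, and the floor of 3 counts corresponded to 2.08 to 2.88 CPM, the unit used below, which puts counts on a common scale using TMM-adjusted library sizes. Hepatocyte marker rows were low: their sum over 18 rows was 310 to 565 counts per library, with ALB (albumin) at 11 to 29, APOA1 at 16 to 39 and HNF4A at 11 to 30 counts, and 1 row, APOH, at 0 throughout. Rows of 5 blood markers summed to 0 to 7 counts per library, of 4 endothelial markers to 0 to 14 and of 4 biliary markers to 8 to 25. HBB, VWF, KDR and KRT7 were at 0 in all libraries.

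The GAPDH row held very few counts. In APEX-NES cells the mock libraries had 22 and 5 GAPDH counts and the arsenite libraries 40 and 21. APEX-NLS cells gave 16 and 17 counts in mock libraries and 30 and 38 after arsenite. APEX-G3BP1 cells gave 12 and 14 counts in mock libraries and 17 and 25 after arsenite. In NLS and G3BP1 cells both arsenite libraries were above both mock libraries in counts, and they were also the deeper libraries. Scaled for depth, the lowest arsenite and highest mock values were 22.7 and 13 CPM in NLS, and 14.6 and 12.9 CPM in G3BP1 cells. In NES cells the mock library with 22 counts was just above the arsenite library with 21, which is the smaller library. Scaled for depth these NES libraries were at 16.2 and 18.5 CPM. Arsenite above mock in CPM with no overlap in each of the 3 lines held for 12.5% of tested rows.

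On the CPM scale the GAPDH row averaged 11.7 ± 4.12 CPM (SD, n = 6) in mock and 21.8 ± 5.2 CPM (SD, n = 6) in arsenite libraries. The second NES mock library was the lowest of all at 3.87 CPM, and its 5 counts have an exact 95% Poisson interval of 1.62 to 11.7 counts. The first NES arsenite library was the highest at 28.6 CPM, from 40 counts with an interval of 28.6 to 54.5 counts. Such intervals cover counting error only, because the libraries carry no molecular identifiers known from the labels and several reads can come from 1 molecule.

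The opposite-strand row was among the most abundant of the table. Counts of ENSG00000269968 were 13210 and 12736 in NES mock libraries and 15797 and 13342 in NES arsenite libraries. In NLS cells they were 12294 and 12070 in mock and 14576 and 16863 in arsenite libraries. In G3BP1 cells they were 15495 and 16421 in mock and 19086 and 22188 in arsenite libraries. By mean count ENSG00000269968 ranked 3 among all rows and GAPDH ranked 7155. The antisense row alone took between 0.946% and 1.57% of a library's counts, lowest in NLS mock and highest in G3BP1 arsenite libraries.

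Per kilobase of exon, the level of the GAPDH row was 5.6 ± 2.32 CPM per kb and that of ENSG00000269968 was 29238 ± 6840 CPM per kb (SD, n = 12 libraries each). For each GAPDH count a library held 395 to 2547 counts of the opposite row, with a median of 739. Across the 12 libraries the log2 CPM of both rows had a Pearson r of 0.18 and a Spearman rho of 0.17, given as a description, since the points share library depth and include 3 lines.

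**Figure D2:**
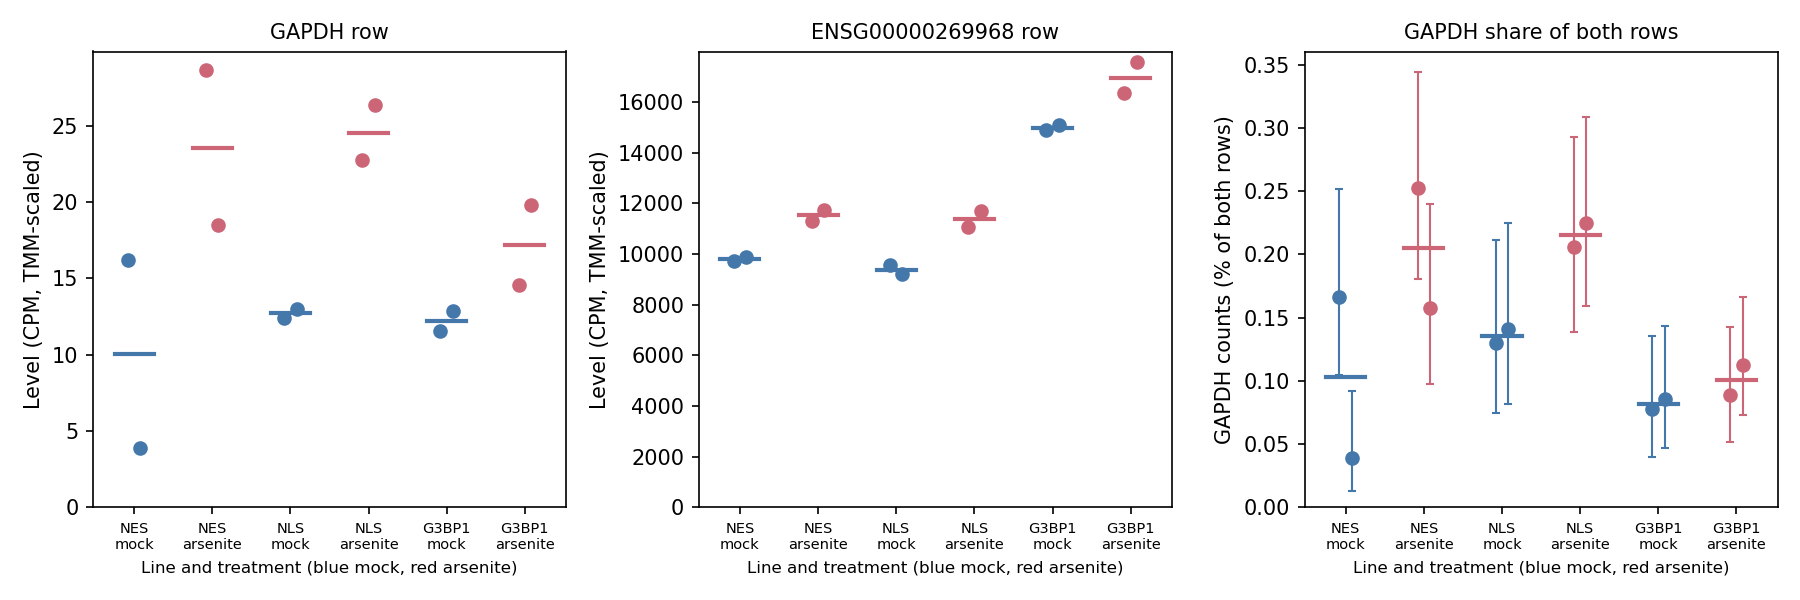
Level of the GAPDH row (left) and of the ENSG00000269968 row (middle) in CPM, and GAPDH counts as a percent of the counts of both rows (right, with 95% Clopper-Pearson intervals), by line and treatment; points are libraries and bars are means of 2. In each line both red arsenite points lie above both blue mock points for both rows, except that the right panel shows overlap in the NES line.

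After arsenite both rows rose. In the fit over all 12 libraries, with line as a term, the GAPDH row was higher by 0.92 on the log2 scale (SE 0.2), a 1.89-fold difference (edgeR adjusted p = 0.000116). ENSG00000269968 was higher by 0.23 on the log2 scale (SE 0.034), a 1.17-fold difference (edgeR adjusted p = 1.73e-08). Calls were common: 38.0% of the 13108 tested rows were called, 19.4% higher and 18.6% lower (51.02% of calls higher, or 43.15% with total-count scaling), with a median log2 fold change of -0.012 over all tested rows. A fold change above that of GAPDH was fitted for 6.5% of the tested rows, and one above that of ENSG00000269968 for 27.42%. In these bulk samples a change in all cells and a change in part of them cannot be told apart.

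Both rows met the stricter description that every arsenite library lies above every mock library in CPM within each of the 3 lines, which 12.5% of tested rows met. Neither row had all 6 arsenite libraries above all 6 mock libraries, which held for 6.44% of tested rows. Counts of both rows added together were higher by 0.23 on the log2 scale after arsenite (SE 0.034, edgeR adjusted p = 1.53e-08), the same size as for ENSG00000269968, which supplies nearly all of the sum.

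Within the NES line the GAPDH row went from 10 ± 8.72 to 23.6 ± 7.16 CPM (SD, n = 2 each), a log2 change of 1.23 (SE 0.34, edgeR adjusted p = 0.00377), against 20.3% of rows called and 10.9% called higher in that line. This value rested on single libraries: without the second NES mock library it was 0.58 (adjusted p = 0.333), without the first NES mock library 2.62, and without the first NES arsenite library 0.87 (adjusted p = 0.2), all by edgeR. ENSG00000269968 went from 9798 ± 96.5 to 11530 ± 319 CPM in the same libraries, a log2 change of 0.23 (SE 0.059, edgeR adjusted p = 0.00122). The replicates of the antisense row lay close together and did not overlap between treatments.

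Within the NLS line the GAPDH row went from 12.7 ± 0.393 to 24.5 ± 2.54 CPM (SD, n = 2 each), a log2 change of 0.95 (SE 0.32, edgeR adjusted p = 0.0242). Here 17.8% of rows were called and 9.67% were called higher. The GAPDH call was lost by edgeR when either NLS mock library (adjusted p = 0.118 without replicate 1 and 0.095 without replicate 2) or the second NLS arsenite library (adjusted p = 0.167) was left out, with log2 fold changes of 0.91, 0.97 and 0.83. ENSG00000269968 went from 9381 ± 234 to 11366 ± 448 CPM, a log2 change of 0.28 (SE 0.059, edgeR adjusted p = 0.000149).

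Within the G3BP1 line the GAPDH row was not called. Its level was 12.2 ± 0.94 CPM without and 17.2 ± 3.7 CPM with arsenite (SD, n = 2 each), and the fitted log2 change was 0.50 (SE 0.37, 95% interval -0.23 to 1.23, edgeR adjusted p = 0.407), where 16.4% of rows were called and 9.22% called higher. ENSG00000269968 went from 14986 ± 138 to 16970 ± 863 CPM, a log2 change of 0.18 (SE 0.058, edgeR adjusted p = 0.0209). That call was lost without the first G3BP1 mock library (0.15, adjusted p = 0.187) or the second G3BP1 arsenite library (0.12, adjusted p = 0.253). With libraries scaled by their total counts alone the value was 0.11 (adjusted p = 0.12).

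The arsenite effect was not shown to differ between lines for either row. The largest and smallest of the 3 line-specific log2 fold changes were 0.73 apart for GAPDH (edgeR adjusted p = 0.85 for any difference between lines) and 0.098 apart for ENSG00000269968 (adjusted p = 0.899). A difference between lines was called for 24 of the 13108 rows, or 0.183%, by edgeR, and for 0 rows by DESeq2, with 1097 and 216 rows at an unadjusted p under 0.05. At 5 to 40 counts per library the GAPDH row leaves wide intervals in each line, and a difference between lines was not detected.

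**Figure D3:**
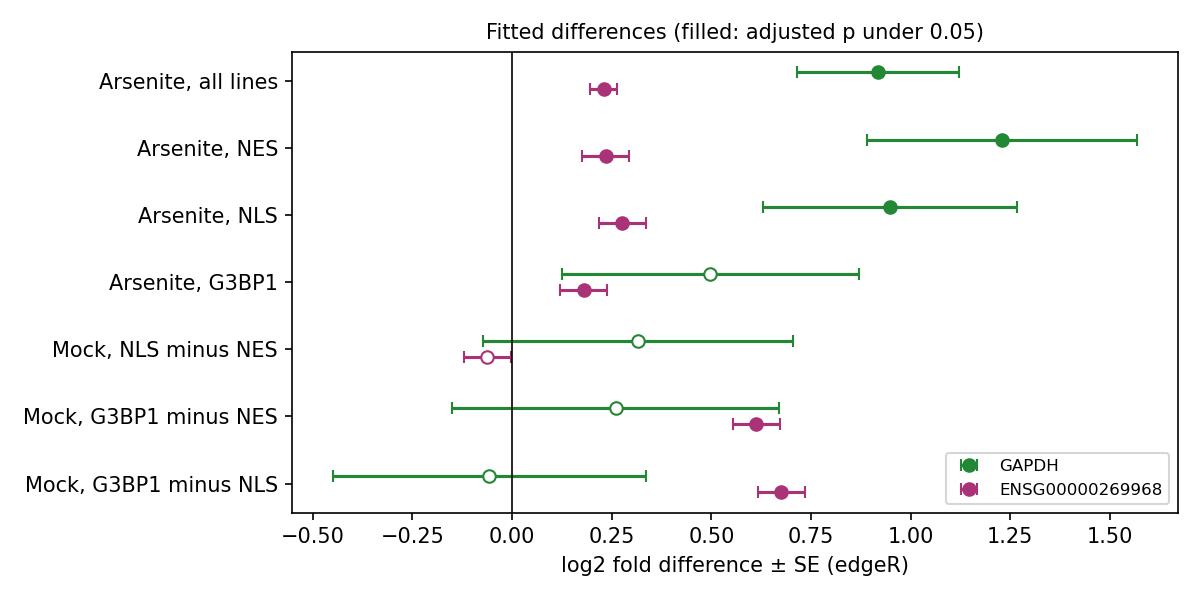
Fitted log2 differences with standard errors for GAPDH (green) and ENSG00000269968 (purple); filled points have an edgeR adjusted p under 0.05. Arsenite effects are larger for GAPDH but with wide errors, and the mock differences between the G3BP1 line and the others are called for ENSG00000269968 (0.61 and 0.68) and not for GAPDH.

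The lines themselves differed for the opposite-strand row. In mock libraries ENSG00000269968 was higher in the G3BP1 line than in the NES line by 0.61 on the log2 scale (SE 0.059), or 1.53-fold (edgeR adjusted p = 1.34e-17), where 11.5% of rows were called and 6.32% called higher. Against the NLS line it was higher by 0.68 (SE 0.059), or 1.60-fold (edgeR adjusted p = 1.08e-20), where 21.1% of rows were called and 11.2% called higher. These comparisons share the G3BP1 mock libraries. All 4 G3BP1 libraries, mock and arsenite, were above all 8 libraries of the other lines, which held for 5.45% of tested rows.

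Between the NLS and NES mock libraries ENSG00000269968 differed by -0.063 on the log2 scale (SE 0.059, 95% interval -0.18 to 0.053, edgeR adjusted p = 0.633), and 6.92% of rows were called. The GAPDH row passed the threshold in none of the 3 mock comparisons. Its edgeR log2 difference was 0.32 for NLS minus NES (SE 0.39, adjusted p = 0.737), 0.26 for G3BP1 minus NES (SE 0.41, 95% interval -0.55 to 1.07, adjusted p = 0.77) and -0.057 for G3BP1 minus NLS (SE 0.39, 95% interval -0.83 to 0.71, adjusted p = 0.946). The intervals of the GAPDH row include the differences measured for ENSG00000269968. Without the second NES mock library the GAPDH differences of NLS and G3BP1 from NES changed sign, to -0.33 and -0.40, and without the first G3BP1 mock library G3BP1 minus NLS was 0.015.

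Some hepatocyte marker rows also differed between these mock groups. Their 18 rows summed to 251 to 269 CPM in NES, 241 to 243 in NLS and 362 to 431 in G3BP1 mock libraries. Of the 11 that passed the filter, 3 were called higher in G3BP1 than in NES (APOB, AFP and ALB) and 2 higher than in NLS (APOB and AFP). Over all tested rows 6.32% were called higher against NES and 11.2% against NLS. With so few marker rows these counts are not read as a trait of the markers. The row of APOB, the structural protein of liver lipoproteins, was higher in the G3BP1 line than in NES by 1.02 on the log2 scale (edgeR adjusted p = 6.08e-09) and than in NLS by 1.11 (adjusted p = 2.14e-10). ENSG00000280390, annotated opposite APOB, held 2533 mean counts against 113.6 for the APOB row. Its differences were smaller, at 0.34 from NES and 0.29 from NLS. AFP, a fetal liver protein kept by many liver tumours, was higher than in NES by 1.22 (edgeR adjusted p = 6.86e-05) and than in NLS by 1.12 (adjusted p = 0.00015). The part of the marker rows in the line difference of ENSG00000269968 was not tested.

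Ordered by mean level, ENSG00000269968 ran from NLS mock through NES mock, NLS arsenite, NES arsenite and G3BP1 mock to G3BP1 arsenite. NLS and NES mock did not differ beyond the test's threshold, and the NLS and NES arsenite libraries overlapped (11049 and 11683 against 11304 and 11755 CPM). The GAPDH order was NES mock, G3BP1 mock, NLS mock, G3BP1 arsenite, NES arsenite and NLS arsenite. Its 3 mock groups did not differ beyond the threshold, and the NES arsenite range of 18.5 to 28.6 CPM held both NLS arsenite libraries and 1 of the G3BP1 arsenite libraries.

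GAPDH counts were a small share of the counts of both rows in every library. In NES mock libraries the share was 0.166% and 0.0392%, and in NES arsenite libraries 0.253% and 0.157%. NLS libraries gave 0.13% and 0.141% in mock and 0.205% and 0.225% after arsenite, and G3BP1 libraries 0.0774% and 0.0852% in mock and 0.089% and 0.112% after arsenite. The lowest share, 0.0392%, has a 95% Clopper-Pearson interval of 0.0127% to 0.0916%, and the highest, 0.253%, one of 0.181% to 0.344%.

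The share averaged 0.106 ± 0.0472% in mock and 0.174 ± 0.0649% in arsenite libraries (SD, n = 6 each), a difference of 0.0671 percentage points. It was higher after arsenite in 6 of 6 same-numbered pairs, but the labels do not say whether the numbers pair the libraries. The first NES mock library (0.166%) lay above the second NES arsenite library (0.157%). In a two-sided exact permutation test that exchanged treatment labels within lines (216 arrangements), p was 0.0278, and the smallest p this design allows is 0.00926. Without the second NES mock library the difference was 0.046 points (p = 0.0926, exact permutation), and without the first NES arsenite library 0.0512 points (p = 0.102, exact permutation). With labels exchanged over all 12 libraries the exact permutation p was 0.0736.

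Other glycolysis genes were compared with GAPDH in the fit over all lines. Of 27 listed genes, GAPDH included, 17 passed the filter on low counts. Of these, 8 rose after arsenite, 2 fell and 7 did not pass the test. Their median log2 fold change was 0.22 against -0.012 over all tested rows, of which 19.4% were called higher and 18.6% lower. HK1, HK3 and HKDC1, which phosphorylate glucose or are related to enzymes that do, were at 0 counts in all 12 libraries. TPI1, which interconverts the triose phosphates just before the GAPDH step, rose from 24 ± 5.67 to 50.1 ± 11.1 CPM (SD, n = 6 each), a log2 change of 1.05 (SE 0.14, edgeR adjusted p = 7.67e-10). Its size was near that of GAPDH, and the difference between them was not tested.

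PKLR, the liver form of pyruvate kinase, rose by 0.50 on the log2 scale (SE 0.17, edgeR adjusted p = 0.0142). The call was lost with DESeq2 (0.52, adjusted p = 0.0589) and, by edgeR, without the first NLS mock (0.43) or the first G3BP1 mock library (0.39). ENO3, a muscle enolase, held most of the counts of the list, with 1646 to 2936 per library, and rose by 0.22 (SE 0.039, edgeR adjusted p = 1.16e-06). The row is annotated opposite PFN1, the actin-binding protein profilin, over 111 exon bases, and PFN1 held 9 to 26 counts.

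GAPDHS, the sperm form of GAPDH, fell from 88.4 ± 4.59 to 67.5 ± 9.12 CPM (SD, n = 6 each), a log2 change of -0.39 (SE 0.095, edgeR adjusted p = 0.000471). PGAM2, the muscle form of phosphoglycerate mutase, had a log2 change of -0.35 (SE 0.095, edgeR adjusted p = 0.00156). PFKM, a phosphofructokinase subunit (0.042, edgeR adjusted p = 0.722), ALDOA, an aldolase (-0.17, adjusted p = 0.629), PKM, a pyruvate kinase (-0.53, adjusted p = 0.0863) and HK2, a hexokinase (-0.20, adjusted p = 0.576) did not pass the test. PFKM had a value of -0.0059 with total-count scaling, and PKM was called without the second NES arsenite library (-0.67, edgeR adjusted p = 0.0456).

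**Figure D4:**
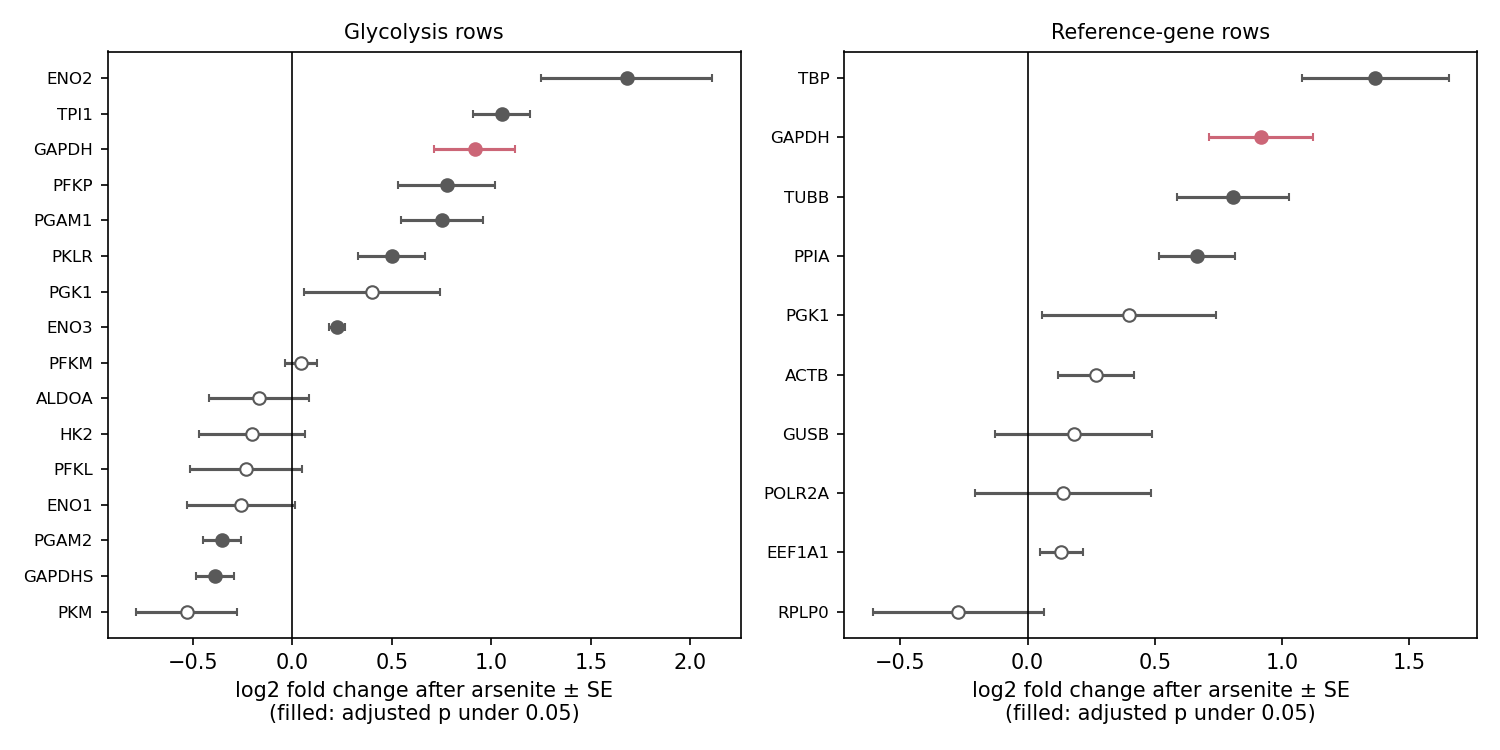
Log2 fold change after arsenite with standard errors, over all lines, for the glycolysis rows (left) and reference-gene rows (right) that passed the filter and are reported here; filled points have an edgeR adjusted p under 0.05 and GAPDH is red in both panels. GAPDH (0.92) lies high in each panel, below ENO2 and TPI1 on the left and below TBP on the right.

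Rows annotated opposite glycolysis exons, ENSG00000269968 among them, were 15 in number. Of these, 8 passed the filter, of which 6 rose and 2 did not pass the test, and the other 7 were not tested. The share called higher over all tested rows was 19.4%. SPSB2, opposite TPI1 over 14 exon bases, rose by 0.86 on the log2 scale (SE 0.089, edgeR adjusted p = 2.21e-14), close to TPI1 itself. The antisense rows opposite ALDOA (ENSG00000274904, 0.17, adjusted p = 0.00859), ALDOC (ENSG00000265168, 0.26, adjusted p = 0.000788) and GAPDHS (TMEM147-AS1, 0.28, adjusted p = 0.00216) rose by sizes like that of ENSG00000269968 in the same edgeR fit. For ALDOA and GAPDHS the coding row had the other sign, which in the case of GAPDHS was called. The call of ENSG00000274904 was lost without the first NES arsenite library (0.13) and with total-count scaling (0.12).

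Of 6 genes of gluconeogenesis, which runs through GAPDH in reverse, 3 passed the filter. PC, pyruvate carboxylase, rose from 46.8 ± 9.88 to 133 ± 22.5 CPM (SD, n = 6 each), a log2 change of 1.5 (SE 0.093, edgeR adjusted p = 1.06e-27). LRFN4, the row opposite PC, fell by 0.58 on the log2 scale (SE 0.078, edgeR adjusted p = 6.41e-10). PCK2, the mitochondrial PEP carboxykinase, had a log2 change of -0.64 (SE 0.18, edgeR adjusted p = 0.00187). FBP2, the muscle fructose bisphosphatase, had one of -0.40 (edgeR adjusted p = 0.0391), a call that held without NLS mock replicate 2, NLS arsenite replicate 1, G3BP1 mock replicate 1 or G3BP1 arsenite replicate 2 and was lost without any 1 of the other 8 libraries (-0.46 to -0.33 over all 12). The FBP2 call was also lost with no filter (adjusted p = 0.107), with rows kept from a mean of 1 CPM (adjusted p = 0.0543) and with DESeq2 (adjusted p = 0.131).

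Among 19 genes used as references, GAPDH included, 12 passed the filter, 5 rose and 7 did not pass the test, with a median log2 fold change of 0.33. Over all tested rows 19.4% were called higher and 18.6% lower. TBP, the TATA-binding protein, rose by 1.37 on the log2 scale (SE 0.29, edgeR adjusted p = 5.11e-05), TUBB, a beta tubulin, by 0.81 (SE 0.22, adjusted p = 0.00183) and PPIA, cyclophilin A, by 0.67 (SE 0.15, adjusted p = 0.00016). EEF1A1, a translation elongation factor (0.13, edgeR adjusted p = 0.206), ACTB, beta actin (0.27, adjusted p = 0.154) and GUSB, a lysosomal enzyme (0.18, adjusted p = 0.682) did not pass the test. ACTB held 26 to 49 counts per library and EEF1A1 100 to 155, so these reference rows were low in counts as well. The row opposite TUBB, ENSG00000272540, held 4440 to 6991 counts and rose by 0.19 (SE 0.036, edgeR adjusted p = 4.07e-06).

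GAPDH has many processed pseudogenes, copies of its transcript put back into the genome, and reads shared with them could be lost or split in counting. Of 66 rows, made up of such copies and the coding gene GAPDHS, 33 were at 0 in all libraries and 9 passed the filter. Together the 66 rows held 236 to 358 counts per library, more than the GAPDH row itself. GAPDHS alone held 72 to 121 counts per library. Of the 9, 1 was called higher and 3 lower, GAPDHS among the latter, against 19.4% and 18.6% of all tested rows. GAPDHP60 had a log2 change of -0.62 (SE 0.17, edgeR adjusted p = 0.00177) and GAPDHP61 one of -0.87 (SE 0.19, adjusted p = 8.81e-05), against 0.92 for GAPDH. GAPDHP42 was the single copy called higher (0.41, edgeR adjusted p = 0.0481), and this call held without NES mock replicate 1, NLS mock replicate 2, NLS arsenite replicate 1 or G3BP1 mock replicate 2 and was lost without any 1 of the other 8 libraries (0.31 to 0.52 over all 12). The GAPDHP42 call was also lost with total-count scaling (adjusted p = 0.0851), no filter (adjusted p = 0.151), rows kept from a mean of 1 CPM (adjusted p = 0.082) and DESeq2 (adjusted p = 0.139). GAPDHP44 (-0.086), GAPDHP2 (-0.31), GAPDHP39 (-0.32) and GAPDHP51 (-0.40) did not pass the test, with edgeR adjusted p of 0.744, 0.193, 0.203 and 0.263. How reads matching several copies were counted is not given in the sources used here, so these rows are uncertain.

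The 5 table rows on each side of GAPDH on chromosome 12 held few counts apart from ENSG00000269968. NCAPD2, a condensin subunit upstream on the same strand, held 96 to 236 counts and rose by 0.30 on the log2 scale (SE 0.076, edgeR adjusted p = 0.000923). MRPL51, a mitochondrial ribosome protein (-0.071, edgeR adjusted p = 0.706), ENSG00000285238 (0.17, adjusted p = 0.506) and ENSG00000245667 (-0.0085, adjusted p = 0.987) did not pass the test. The divergent row GAPDH-DT, which starts beside the GAPDH promoter on the minus strand, held 1 to 9 counts, and IFFO1, next to the 3′ end on the same strand as ENSG00000269968, held 3 to 11.

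A low coding row beside a high opposite row was common among abundant overlapping pairs. The part of the strand setting of the counting in this was not tested. With a mean of at least 1000 counts over both rows, 110 pairs joined a coding row to a row of another type on the opposite strand. The coding row held a median of 1.252% of the pair's mean counts, under 1% in 50 pairs and under 5% in 79. GAPDH, at 0.1394%, was below all but 14 of the 110 pairs. The pair with the highest opposite-strand count was TUBA1B, an alpha tubulin, with 12.2 mean counts against 17259 for ENSG00000258017, and GAPDH with 21.4 against 15340 came next. APOA1 had 25.3 mean counts and APOA1-AS, opposite it over 123 bases, had 3225.

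**Figure D5:**
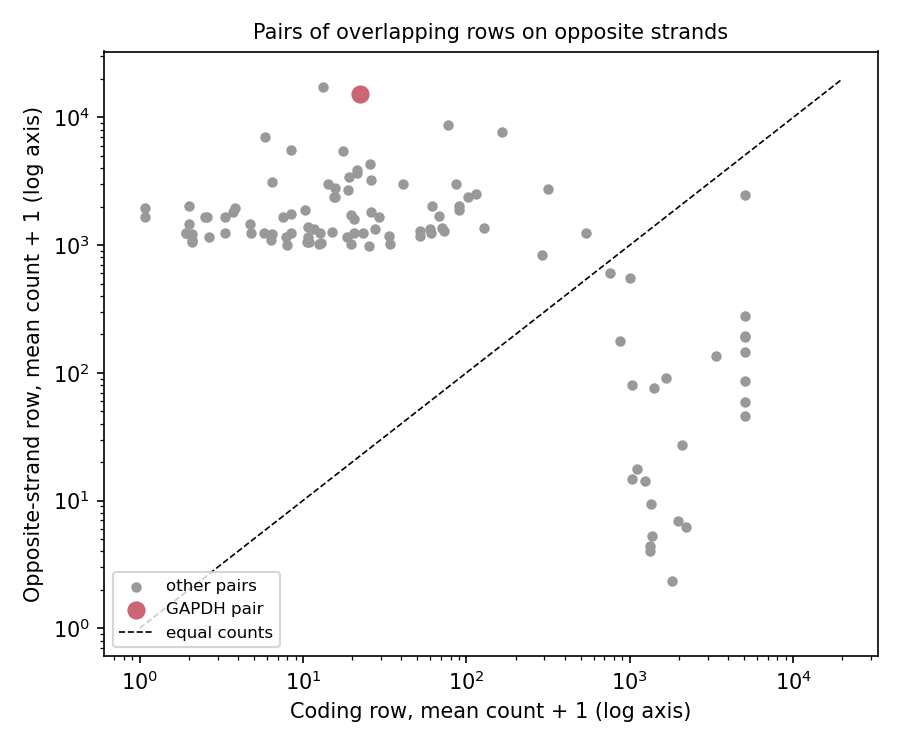
Mean count of the coding row against mean count of the opposite-strand row, each plus 1 on log axes, for 110 overlapping pairs; the red point is GAPDH with ENSG00000269968 and the dashed line marks equal counts. Most points, GAPDH among them, lie far above the line, and 79 pairs have under 5% of their counts on the coding row.

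Within the 79 pairs under 5%, the opposite-strand rows rose more often than they fell after arsenite. Of 60 distinct opposite rows, 35 rose, 8 fell and 17 did not pass the test, with a median log2 fold change of 0.12. A larger value than that of ENSG00000269968 was found for 10 of them. Rises were about as frequent among all 135 rows with a mean of at least 1000 counts, where 75 (55.6%) rose and 21 fell, with a median of 0.13. Most of the 60 opposite rows are themselves among these 135, and abundant rows outside the pairs were not counted apart. Whether the calls are particular to opposite-strand rows was therefore not tested. The coding rows of these pairs were mostly not called. Of 77 coding rows 53 passed the filter, 13 rose, 1 fell and 39 did not pass the test. Their median was 0.087, and 2 had a larger value than GAPDH. Over all tested rows 19.4% were called higher and 18.6% lower. The median difference between coding and opposite log2 fold change was 0.029 over 55 pairs with both rows tested, against 0.69 for GAPDH, and 7 pairs had a larger difference. These are counts of rows, with no test of the GAPDH pair against the others.

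Calls were set beside those of rows with like counts. Among the 135 rows with a mean of at least 1000 counts, 75 (55.6%) were called higher and 21 lower, with a median log2 fold change of 0.13, so a rise was the most frequent call in the abundance class of ENSG00000269968. Among the 8139 tested rows with a mean of 5 to 40 counts, the range of the GAPDH libraries, 15.89% were called higher and the median was -0.054.

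ENSG00000269968 varied more between libraries than most abundant rows. Its coefficient of variation (SD over mean) over 12 libraries was 23.39%, against a median of 13.38% for the 135 rows, and 119 of them had a smaller value. Over mock libraries it was 24.55% against a median of 11.69%. Within a line, mock and arsenite together, NES cells gave 9.55%, NLS cells 11.4% and G3BP1 cells 7.83%. The GAPDH row had 60.5%, 37.6% and 24.7% in the same lines, at far lower counts.

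Other opposite-strand rows did not all share the difference between lines. In mock libraries ENSG00000258017, opposite TUBA1B, differed by 0.034 between G3BP1 and NES (edgeR adjusted p = 0.795), and ENSG00000272540, opposite TUBB, by 0.018 (adjusted p = 0.901), against 0.61 for ENSG00000269968. Of the 60 opposite rows, 25 were higher and 10 lower in G3BP1 than in NES cells, with a median of 0.15. Against NLS cells 38 were higher and 10 lower, with a median of 0.23. Over all tested rows 11.5% were called and 6.32% called higher against NES, and 21.1% and 11.2% against NLS. Abundant rows are called more easily, and the share among rows with like counts is not given here. The counts are therefore not read as a trait of opposite-strand rows.

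The 5 rows whose log2 CPM followed ENSG00000269968 most closely over the 12 libraries, of 2369 with a mean of at least 100 counts, were RUVBL1 (Pearson r = 0.99), NQO1-DT (0.989), APOA1-AS (0.986), EPHA5-AS1 (0.984) and ENSG00000262831 (0.981). These values are descriptions over libraries that share 3 lines and 2 treatments. All 5 overlap another gene on the opposite strand, such as SEC61A1 for RUVBL1 and P4HB for ENSG00000262831. The share of such rows among the 2369 was not counted, so this is not read as a trait. APOA1-AS rose by 0.25 on the log2 scale after arsenite (edgeR adjusted p = 1.95e-08) and was higher in G3BP1 than in NES and NLS mock cells by 0.47 and 0.64. The same 3 quantities for ENSG00000269968 were 0.23, 0.61 and 0.68. Rows were picked for likeness over these same libraries, so the nearness of these values follows from the choice.

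COL3A1, a gene listed as a stromal marker, moved with arsenite as well in these Huh-7.5 libraries. The 5 stromal marker rows summed to 6 to 16 counts in mock and 41 to 73 counts in arsenite libraries, nearly all from COL3A1, a fibrillar collagen, which rose by 2.04 on the log2 scale (edgeR adjusted p = 3.09e-18). COL1A1, COL1A2 and DCN held at most 2 counts in any library and LUM was at 0. The cause of the COL3A1 rise and its part in the other arsenite results were not tested.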

How the data were processed

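Raw counts per gene were deposited as 1 table for RNA-seq libraries made after ribosomal RNA depletion with a kit that keeps strand, per the labels' protocols. The submitters' processing notes name Trim Galore, Subread, featureCounts, edgeR and the build GRCh38.p13; their settings and the annotation are not given in the sources used here. Of 16 columns, 12 matched a sample title and 4 matched none and were not used. Counts were tested as deposited with edgeR 4.0.16 (R 4.3.3): TMM scaling, filterByExpr by group (minimum count 10, minimum total 15), quasi-likelihood F tests, Benjamini-Hochberg adjustment over all 13108 tested rows, threshold 0.05. The average arsenite effect had line and treatment as additive terms (8 residual degrees of freedom); other contrasts came from 1 mean per group (6). Standard errors were derived from the log2 fold change and F statistic, and 95% intervals of fitted values span 1.96 of them each way. The fit was tested on simulated data. Gene positions, overlaps and sequences came from GENCODE 29, to which 57004 rows were matched; likeness used log2(CPM + 0.5). Permutation tests used scipy 1.17.1. Replicates of a group differed beyond counting noise in all 6 groups (chi-square per degree of freedom 1.108 to 1.393), so each library counted once. Genes named were the members, up to 6 called and 4 uncalled rows per list with the largest mean counts, opposite rows with a mean of at least 100 counts, and the 5 most alike rows. Some listed rows are counted in the list totals but not reported singly here. Other rows named (marker rows, TUBA1B, APOA1, and rows at 0) were chosen after their values were seen. The members and lists were chosen with earlier results of these data known. Alternatives were other scalings and filters, DESeq2 1.42.0, a replicate block, fits on 1 line or on mock libraries, and leaving out each library.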

Additional observations from a re-analysis of the deposited data

How the results depend on the processing

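The average arsenite effect kept its direction and call under every alternative run, at 0.87 to 0.92 for GAPDH and 0.18 to 0.23 for ENSG00000269968 on the log2 scale, and without 1 library at 0.71 to 1.07 and 0.21 to 0.25. The GAPDH share difference was 0.0671 points with labels exchanged over all libraries (exact permutation p = 0.0736) and 0.046 to 0.0883 without 1 library. With DESeq2 the GAPDH effect was 1.25 in NES (adjusted p = 0.127) and 0.95 in NLS (adjusted p = 0.319), and with no filter 0.93 in NLS (edgeR adjusted p = 0.0711). Without 1 library GAPDH ranged from 0.58 to 2.62 in NES and 0.83 to 1.04 in NLS, and ENSG00000269968 from 0.12 to 0.22 in G3BP1. The latter was 0.11 with total-count scaling (edgeR adjusted p = 0.12), and the cause was not tested. The GAPDH mock differences ranged without 1 library from -0.33 to 1.70 (NLS minus NES), -0.40 to 1.63 (G3BP1 minus NES) and -0.16 to 0.015 (G3BP1 minus NLS).

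DESeq2 called fewer rows than edgeR: 1003 against 2658 for arsenite in NES, 606 against 2334 in NLS, 704 against 2146 in G3BP1, 0 against 24 for line differences (216 at an unadjusted p under 0.05), 315 against 907 for NLS minus NES, 561 against 1512 for G3BP1 minus NES and 1244 against 2769 for G3BP1 minus NLS. Without 1 library edgeR called 1747 to 2739, 1321 to 2413, 1204 to 2195, 20 to 31, 479 to 973, 860 to 1564 and 1840 to 2863 rows in the same order. Total-count scaling moved the median of G3BP1 minus NLS over all rows from -0.013 to -0.13, and the percent of calls that were higher from 52.83 to 36.2 there, from 54.83 to 40.58 for G3BP1 minus NES, from 44.32 to 57.16 for NLS minus NES, from 56.34 to 44.11 for arsenite in G3BP1, from 53.61 to 48.74 in NES, from 54.28 to 45.96 in NLS and from 51.02 to 43.15 for the average arsenite effect. ENSG00000269968 was then still higher in G3BP1 than in NES (0.54) and NLS (0.56) mock cells. Rows not called changed sign at small values: PFKM was -0.0059 with total counts, and without 1 library PFKM ranged from -0.039 to 0.11, ALDOA from -0.35 to 0.083, GAPDHP44 from -0.20 to 0.025 and MRPL51 from -0.13 to 0.0063.

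Same-numbered mock and arsenite libraries did not deviate together (r = -0.049 in NES, -0.01 in NLS and 0.0058 in G3BP1 over 6521 genes). Counting noise pulls such r values towards 0, so they cannot show whether the numbers mark a shared day or batch. With the replicate block the average effect was 0.92 for GAPDH and 0.23 for ENSG00000269968. The SE of ENSG00000269968 was 0.028 with the block and 0.034 without it, and that of GAPDH was 0.2 in both. In this fit 4983 rows were called, and no call of either row changed. The share difference had an exact permutation p of 0.0312 over sign changes of same-numbered pairs. The GAPDH row is limited by its 5 to 40 counts per library.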
